A study of Lolium arundinaceum with 18 samples.

Results

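Proteases cut proteins and protease inhibitors block them, and both are described here in leaves of tall fescue (Lolium arundinaceum, also called Festuca arundinacea), a cool-season turf grass. Members were taken by words in the annotation of each assembled gene (unigene): cysteine proteases including SAG39, subtilisin-like proteases, aspartic proteases, cystatins and other cysteine proteinase inhibitors, Bowman-Birk inhibitors and serpins. The rule found 141 members among 109684 unigenes, of which 42440 carry an annotation. They were 113 proteases and 28 inhibitors. The best database match was in a grass for 139 of the 141.

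RNA was sequenced from 18 libraries of leaves, 3 for each of 6 groups, all from greenhouse pots of 30 seedlings and sampled at day 20. DS_Si NPs, DS_CNCs and DS plants were kept at 35 to 45% of field capacity, the drought regime, and Si NPs, CNCs and CK plants at 65 to 75%, normal moisture. DS_Si NPs and Si NPs leaves were sprayed with silicon nanoparticles at 300 mg/L, DS_CNCs and CNCs leaves with cellulose nanocrystals at 100 mg/L, and CK leaves with double-distilled water, with particle sprays every 3 days. Tween-20 at 0.05% is described for the particle sprays alone, and no spray is named for DS. The particle, its surfactant and, under drought, the act of spraying therefore cannot be told apart. In DS against CK, drought and the act of spraying cannot be told apart either. Tests of a difference between the regimes carry both limits. No genotype or cultivar is given, and the labels do not tie libraries to pots, so the p-values measure the spread between these libraries.

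In a leaf, papain-type cysteine proteases of the vacuole degrade proteins during turnover and senescence, and cystatins are small proteins that plug their active site. Subtilisin-like proteases (subtilases, SBT) are serine proteases that are mostly secreted to the cell wall space. Aspartic proteases of plants include vacuolar pepsin-like enzymes and a large nepenthesin-type group, named after the enzymes in the pitcher fluid of Nepenthes. Bowman-Birk inhibitors and subtilisin-chymotrypsin inhibitors block serine proteases, and serpins trap their target protease in a covalent complex.

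Levels are given in TPM, a unit scaled for transcript length and library size. Differences are log2 fold changes from edgeR, a count model. The standard error (SE) is not an edgeR output. It was derived as the absolute log2 fold change divided by the square root of the F statistic of edgeR's test. A member is said to have risen or fallen where its adjusted p, corrected over all 55979 unigenes tested, was under 0.05 and its log2 fold change was beyond 2 in either direction. Of the 141 members, 85 had enough reads to be tested (65 proteases and 20 inhibitors). The 56 that were not tested had a mean of at most 5.07 TPM, 36 of them under 1 TPM. They were also short, with a median of 247 bases against 1267 in the tested members. A low mean can hide a higher group. The untested subtilisin-like DN26272_c0_g1 had 29.5, 44.45 and 4.50 TPM in DS leaves and at most 4.59 TPM in any library of another group. In bulk leaf RNA, fewer cells of a type and less RNA per cell cannot be told apart.

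The libraries held 16175624 to 26102122 estimated counts each. CK 3 stood apart: at 97.6% of the 2729 unigenes that differed over 8-fold between CK 1 and CK 2 its level lay between them, and so did 47 of 62 members. In the groups other than CK the matching share was 67.3 to 79.8%. Members called against CK are therefore also given without CK 3. The 57 leaf-defining unigenes (chlorophyll-binding proteins, Rubisco small subunit and activase) summed to 35397 to 100917 TPM in the 18 libraries, and the 2 root markers to at most 4.68. The root markers summed to at most 0.61 TPM in DS leaves and to 1.29 to 1.47 in CNCs leaves against 1.72 to 4.68 in CK leaves. The leaf list summed to 62580 to 100917 TPM in DS_Si NPs leaves against 51516 to 61782 in DS leaves, and to 35397 to 42312 in CNCs leaves against 46085 to 88369 in CK leaves. The 136 markers of dividing tissue summed to 5255 to 6551 TPM in DS_CNCs leaves against 4233 to 5169 in DS leaves, and to 4369 to 4556 in Si NPs leaves and 5687 to 6513 in CNCs leaves against 3770 to 4229 in CK leaves. The 18 seed and flower markers summed to 112 to 134 TPM in Si NPs leaves against 144 to 148 in CK leaves. The part of these markers in the results below was not tested.

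Summed over all members, inhibitors ranged more widely between libraries than proteases. The 113 proteases summed to 1757 ± 356 TPM in DS_Si NPs leaves, 2074 ± 165 in DS_CNCs and 1752 ± 43.2 in DS (SD, n = 3 each). Under normal moisture they summed to 1969 ± 208 TPM in Si NPs leaves, 2949 ± 199 in CNCs and 2396 ± 371 in CK. The 28 inhibitors summed to 2897, 932.5 and 3947 TPM in DS_Si NPs leaves and to 658, 487 and 615 TPM in DS_CNCs leaves, against 9951, 6737 and 3613 TPM in DS leaves. They summed to 975, 947 and 614 TPM in Si NPs leaves and to 463, 1289 and 680 TPM in CNCs leaves, against 7173, 492.5 and 3702 TPM in CK leaves. DS_CNCs lay below DS in every library, while CK 2 lay within the range of the Si NPs and CNCs libraries and CK 1 and CK 3 above all 6 of them. A single cystatin, Cysteine proteinase inhibitor 5, made up 48.3% of the inhibitor sum in DS_Si NPs, 16.9% in DS_CNCs and 71.3% in DS. It made up 35.1% in Si NPs, 37.0% in CNCs and 72.4% in CK.

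**Figure D1:**
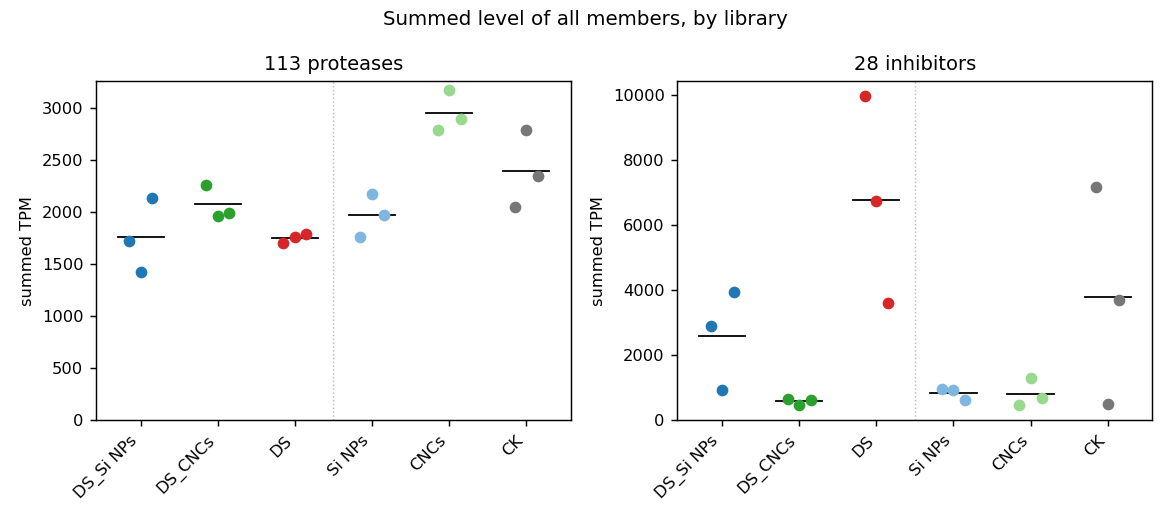
Summed TPM of the 113 proteases and of the 28 inhibitors in each library, by group, with points for the 3 libraries and a line for their mean. Proteases stayed between 1422 and 3170 TPM, while inhibitors ranged between 463 and 9951 TPM.

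The member that moved most clearly was the SAG39-like cysteine protease DN8170_c0_g1. SAG39 is known in rice as a papain-type protease of senescing leaves. Its unigene had 23.3, 3.93 and 13.5 TPM in DS_Si NPs leaves and 41.6, 31.0 and 15.3 TPM in DS_CNCs leaves, against 1.44, 1.33 and 0.34 TPM in DS leaves. Under normal moisture it had 23.3, 23.7 and 40.5 TPM in Si NPs leaves and 72.4, 108 and 50.9 TPM in CNCs leaves, against 49.5, 27.7 and 36.2 TPM in CK leaves. The DS libraries were the lowest 3 of the 18, and they overlapped no other group.

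Relative to CK it fell by 5.04 on the log2 scale in DS (SE 0.67, adjusted p = 0.00191). Relative to DS it rose by 4.69 in DS_CNCs (SE 0.66, adjusted p = 0.0017) and by 3.76 in DS_Si NPs (SE 0.64, adjusted p = 0.0088). These 3 calls held in each of the 18 refits that left out 1 library. All 3 comparisons share the DS libraries. Without CK 3 the DS value was -5.09 with an adjusted p of 0.0125. The DS_Si NPs call, with every other in that comparison, was lost when only the 6 libraries compared were fitted (adjusted p = 0.113). Under normal moisture neither particle group passed the test against CK. The contrast of CNCs-sprayed leaves with their control differed between water regimes (interaction log2 3.87, SE 0.83, adjusted p = 0.0234). That call was lost without CNCs 1, CNCs 3, CK 1, CK 3, DS_CNCs 1 or DS_CNCs 2 (adjusted p 0.0606 to 0.0739). The interaction with Si NPs was 3.98 and did not pass (adjusted p = 0.0517), while it passed without DS_Si NPs 2 (4.34, adjusted p = 0.0202). The 3 other SAG39-annotated members had too few reads to be tested.

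The other cysteine proteases were among the most abundant members, and 2 of them had their lowest levels in DS as well. DN6423_c0_g1, whose nearest Swiss-Prot entry is the barley vacuolar protease aleurain, had 386, 386 and 527 TPM in DS_Si NPs leaves and 624.5, 694 and 516 TPM in DS_CNCs leaves, against 275, 281 and 319 TPM in DS leaves. It had 341, 544 and 536 TPM in Si NPs leaves and 845, 988 and 834 TPM in CNCs leaves, against 481, 902 and 669 TPM in CK leaves. DS again held the 3 lowest libraries of the 18. DN122848_c0_g1, a unigene of 214 bases with the same nearest entry, did not share this pattern. It had 20.7, 74.0 and 23.2 TPM in DS leaves against 97.6, 0 and 37.6 TPM in CK leaves.

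DN6423_c0_g1 was lower in DS than in CK (log2 -0.92, SE 0.16, adjusted p = 0.00831). It was higher than in DS in DS_CNCs (1.03, SE 0.16, adjusted p = 0.00332) and in DS_Si NPs (0.75, SE 0.16, adjusted p = 0.0203). All 3 differences were under the fold threshold. Leaving out 1 library kept the adjusted p under 0.05 for DS (at most 0.0445, and 0.0398 without CK 3) and DS_CNCs (at most 0.0155), but it reached 0.0862 for DS_Si NPs.

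DN4533_c1_g1, a papain-like proteinase nearest to the rice enzyme oryzain alpha, had 207, 187.5 and 222 TPM in DS_Si NPs leaves and 281, 254 and 228 TPM in DS_CNCs leaves, against 165, 155 and 184 TPM in DS leaves. In CK leaves it had 313, 286 and 294 TPM. It was lower in DS than in CK (log2 -0.70, SE 0.13, adjusted p = 0.00994), higher in DS_CNCs than in DS (0.53, SE 0.13, adjusted p = 0.0223) and not past the test in DS_Si NPs against DS (0.38, adjusted p = 0.0861). DS overlapped neither particle group under drought, nor CK. In refits the adjusted p reached 0.0476 for DS against CK (without CK 3) and 0.0955 for DS_CNCs against DS.

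The other abundant enzyme of this class did not pass the test in any comparison. Cysteine proteinase 1 (DN9497_c0_g1), nearest to the maize protein CCP1, had 409 ± 112 TPM in DS_Si NPs leaves, 488 ± 66.4 in DS_CNCs and 410 ± 34.6 in DS, and 510 ± 70.3 in Si NPs, 703 ± 61.0 in CNCs and 631 ± 123 in CK (SD, n = 3 each). Of the 10 tested members of this class outside SAG39, none rose or fell in any of the 9 comparisons, where 0 to 5.8% of all unigenes were called. One of them, the papain-like DN27283_c0_g1, was seen in only 4 libraries: Si NPs 3 (12.1 TPM), DS_Si NPs 2 (7.55), DS_CNCs 1 (20.5) and DS_CNCs 2 (16.7). It was at 0 counts in DS, CNCs and CK, and its adjusted p was 0.152 for DS_CNCs against DS.

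**Figure D2:**
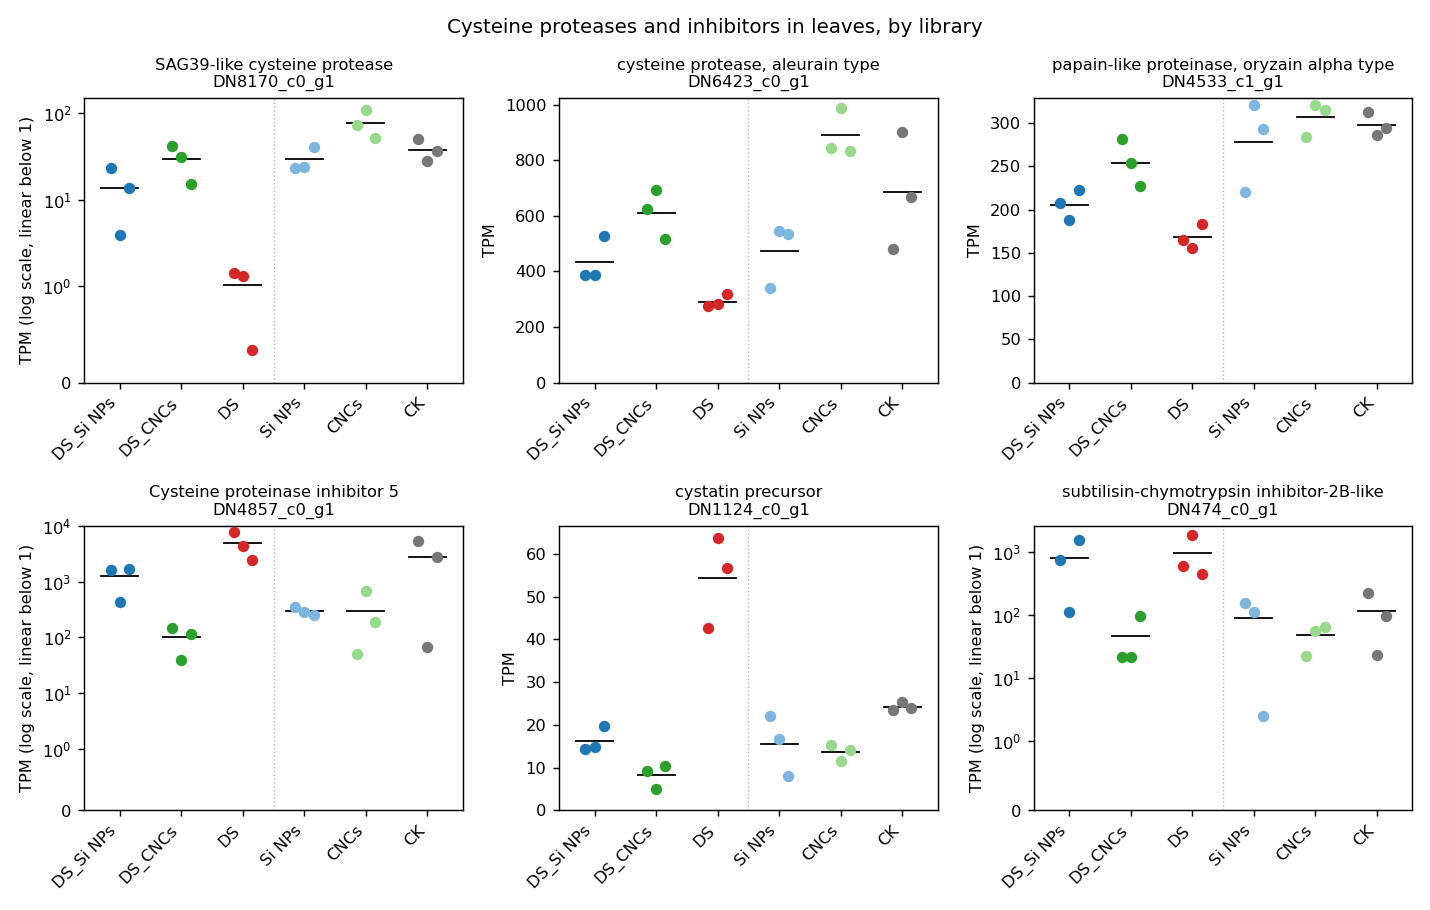
TPM of 3 cysteine proteases (top) and 3 inhibitors (bottom) in each library, by group, with points for the 3 libraries and a line for their mean; axes labelled as log are logarithmic above 1 TPM and linear below it. The SAG39-like gene lay at 0.34 to 1.44 TPM in DS and at 3.93 TPM or more in every other library, and the cystatin precursor lay highest in DS, at 42.7 to 63.7 TPM.

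The 30 tested subtilisin-like proteases did not all move in 1 direction. In DS_CNCs against DS, 13 of the 30 had a log2 fold change above 0. There 8 lay below DS without overlap, where 12% of all unigenes did, and 2 lay above. The share over all unigenes that lay above is not given, so the 2 are not a result about the members. An unadjusted p under 0.05 was seen there for 12 of the 30, where 29.1% of all unigenes had one. The median log2 fold change of the 30 was -0.52 in DS_CNCs against DS (0.10 over all unigenes tested), 0.29 in DS_Si NPs against DS (0.14 over all) and 0.09 in DS against CK (0 over all). Subtilisin-like protease DN4575_c0_g1, the most abundant of them, had 99.0, 75.0 and 105 TPM in DS_Si NPs leaves and 95.4, 85.8 and 133 TPM in DS_CNCs leaves, against 196, 282 and 226 TPM in DS leaves. In CK leaves it had 130, 164 and 149 TPM. DS held the highest 3 of the 18 libraries, the reverse of the SAG39-like gene.

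DN4575_c0_g1 was lower than in DS in DS_CNCs (log2 -1.29, SE 0.22, adjusted p = 0.00443) and in DS_Si NPs (-1.26, SE 0.22, adjusted p = 0.0103). It was higher in DS than in CK (0.83, SE 0.22, adjusted p = 0.0469). These differences were under the fold threshold, and in refits without 1 library the adjusted p reached 0.0245, 0.0504 and 0.198 in that order. Without CK 3 the DS value was 0.82 (adjusted p = 0.189). The next in abundance did not pass any test: DN868_c0_g1 had 33.6 ± 7.22 TPM in DS_Si NPs leaves, 41.6 ± 14.4 in DS_CNCs and 26.9 ± 10.9 in DS, and DN9110_c0_g1 had 20.6 ± 4.19, 30.4 ± 20.0 and 16.1 ± 1.80 TPM in the same order (SD, n = 3 each). SBT6.1 (DN13979_c0_g1), nearest to Arabidopsis SBT6.1 or site-1 protease, which cleaves membrane-bound regulators in the Golgi, had 5.44 to 11.7 TPM in all libraries and passed no test.

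Of the 30 tested subtilases, 1 rose and 1 fell in DS_Si NPs against DS, where 3.39% of all unigenes were called, and 2 fell in DS_CNCs against DS, where 2.32% of all unigenes fell. In DS against CK 1 rose, where 1.59% of all unigenes did, and in Si NPs against CK 1 rose, where 0.847% did. SBT1.7 DN8355_c0_g1, a unigene of 2609 bases, had 3.61, 4.32 and 7.75 TPM in DS_Si NPs leaves against 1.83, 0.90 and 0.52 TPM in DS leaves. It rose by 2.39 in DS_Si NPs (SE 0.54, adjusted p = 0.0226), and the call was lost without DS_Si NPs 2 (adjusted p = 0.0616), DS 2 (0.0996) or DS 3 (1.95, 0.0509). Arabidopsis SBT1.7 is known for its role in seed coat mucilage release.

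Another SBT1.7 unigene, DN78392_c0_g1 of 241 bases, had its highest levels in DS. It had 0, 0.79 and 2.43 TPM in DS_Si NPs leaves and 0, 2.29 and 0 TPM in DS_CNCs leaves, against 8.94, 65.0 and 17.9 TPM in DS leaves, and 0.81, 0.54 and 0 TPM in CK leaves. DS held 130 counts and CK 2, a ratio of 75.6 (95% counting interval 20.5 to 631), and the rise in DS passed (adjusted p = 0.0481). DS_CNCs held 3 counts, a ratio of 49.9 lower (16.7 to 245, adjusted p = 0.0383). The first call held in 3 of 18 refits, those without DS_Si NPs 1, DS_CNCs 2 or DS_CNCs 3, and had an adjusted p of 0.215 without CK 3 and 0.235 without DS 2. The DS_CNCs call held in 10 of 18 and was lost without CNCs 3, CK 1, CK 2, CK 3, DS_CNCs 1, DS_CNCs 3, DS 1 or DS 2 (adjusted p 0.0517 to 0.202, the highest without DS 2).

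SBT1.4 DN31430_c0_g1, 213 bases long, had 0 counts in all DS_Si NPs libraries against 5.01, 2.91 and 13.4 TPM in DS leaves. That is at least 7.66-fold lower, set against a floor of 3 counts over the group (adjusted p = 0.0439). The call held in 2 of 18 refits, those without DS_CNCs 1 or DS_CNCs 3, with an adjusted p up to 0.114. SBT1.8 DN868_c2_g1 had 2.48, 0.69 and 1.91 TPM in DS_CNCs leaves against 2.50, 12.1 and 6.50 TPM in DS leaves. It fell by 2.12 (SE 0.61, adjusted p = 0.041), and the call held in 7 of 18 refits. It was lost without DS 3 or any 1 of the DS_CNCs, CNCs or CK libraries, and without DS 2 the value was -1.58 (adjusted p = 0.178). Both groups nearly met at 2.48 and 2.50 TPM. The subtilisin-like DN51568_c0_g1, 246 bases long, had 41.7, 41.9 and 14.0 TPM in Si NPs leaves against 7.72, 2.81 and 1.54 TPM in CK leaves. It rose by 3.26 (SE 0.77, adjusted p = 0.0493), and the call held in 3 of 18 refits, those without DS_Si NPs 2, DS 1 or DS 3 (adjusted p 0.226 without CK 3).

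SBT5.6 DN16095_c0_g1 was called for the difference between its CNCs comparisons in the drought and normal regimes. It had 4.99, 1.46 and 2.82 TPM in DS_CNCs leaves against 5.66, 4.16 and 5.26 TPM in DS leaves. Under normal moisture it had 12.0, 10.9 and 13.2 TPM in CNCs leaves against 1.97, 1.44 and 1.65 TPM in CK leaves. Neither comparison passed by itself (-1.14, adjusted p = 0.199 under drought and 2.66, adjusted p = 0.0576 under normal moisture), while their difference did (-3.80, SE 0.83, adjusted p = 0.0259). The call was lost in 8 of 18 refits, without CNCs 1, CNCs 2, CNCs 3, CK 1, CK 2, CK 3, DS_CNCs 2 or DS 1 (adjusted p 0.0548 to 0.0864, the highest without CK 3). In Si NPs against CK it was 2.47 (adjusted p = 0.0537).

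**Figure D3:**
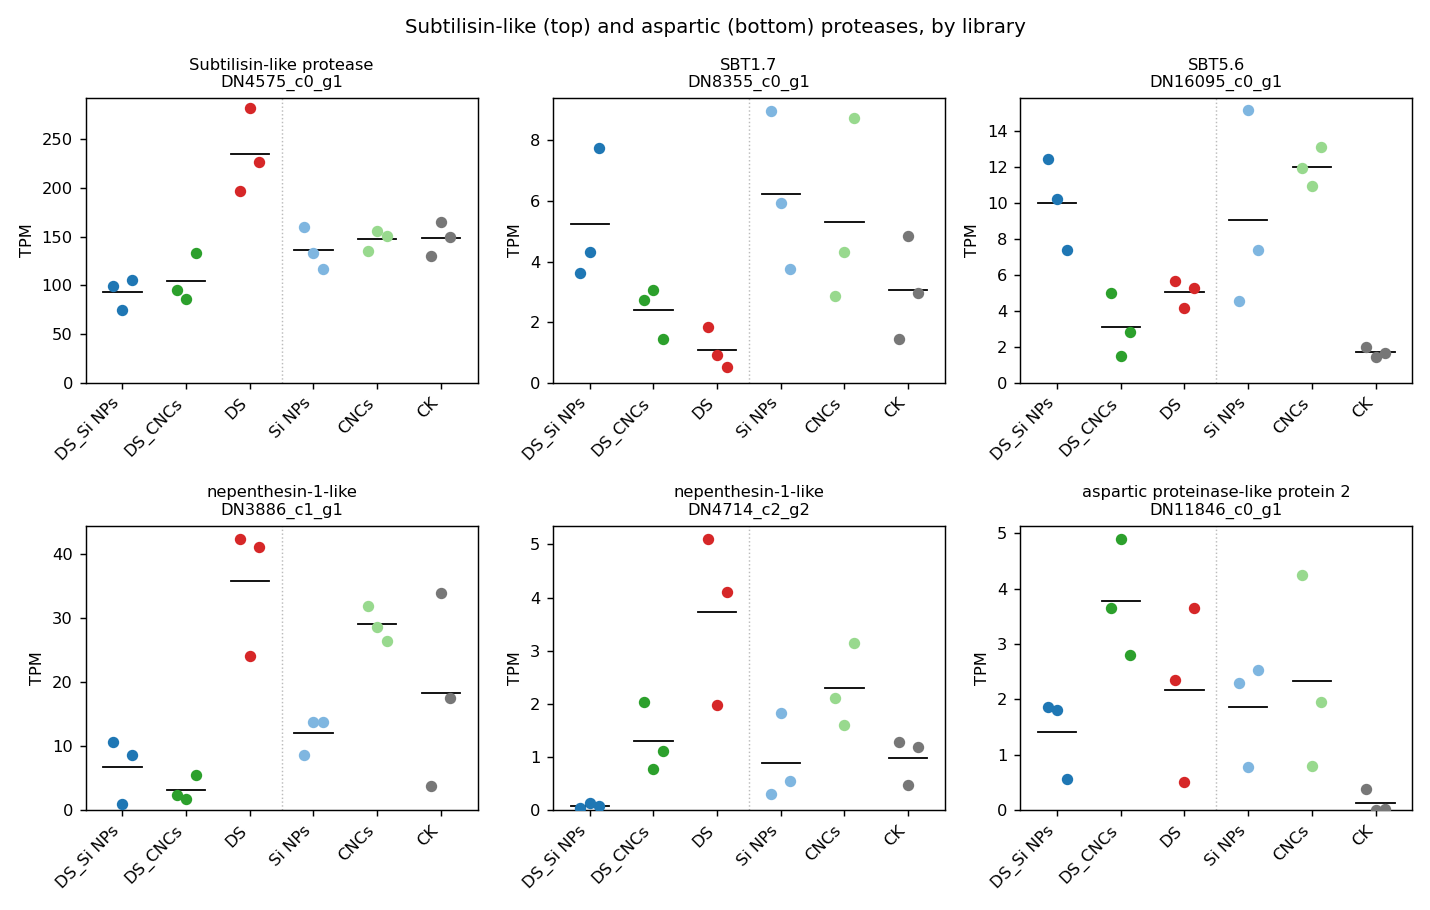
TPM of 3 subtilisin-like proteases (top) and 3 aspartic proteases (bottom) in each library, by group, with points for the 3 libraries and a line for their mean. Nepenthesin-1-like DN4714_c2_g2 lay at 0.04 to 0.14 TPM in DS_Si NPs and at 1.98 to 5.10 TPM in DS.

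Among the 24 tested aspartic proteases, the 3 most abundant passed no test. Aspartic proteinase DN14176_c0_g1, nearest to a rice enzyme of the vacuolar pepsin-like type, had 63.4 ± 31.9 TPM in DS_Si NPs leaves, 73.7 ± 14.9 in DS_CNCs and 71.1 ± 4.95 in DS (SD, n = 3 each). It had 68.4 ± 12.5 TPM in Si NPs leaves, 109 ± 8.02 in CNCs and 60.9 ± 5.49 in CK (SD, n = 3 each), and it passed no test. Nepenthesin-1 DN6498_c0_g1 had 8.55, 1.06 and 13.9 TPM in DS_Si NPs leaves and 2.20, 6.00 and 12.3 TPM in DS_CNCs leaves, against 70.5, 26.8 and 33.7 TPM in DS leaves. DS lay above both without overlap, but neither difference passed (adjusted p = 0.109 and 0.067), and CK spread between 6.80 and 116 TPM. The third in abundance, nepenthesin-1-like DN942_c0_g1, ranged between 7.70 and 40.4 TPM and passed no test.

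The called aspartic proteases had lower mean levels than these 3. Nepenthesin-1-like DN3886_c1_g1 had 10.7, 0.98 and 8.66 TPM in DS_Si NPs leaves and 2.44, 1.78 and 5.47 TPM in DS_CNCs leaves, against 42.4, 24.2 and 41.1 TPM in DS leaves. It fell by 3.63 in DS_CNCs (SE 0.84, adjusted p = 0.0175), and the call was lost without DS_CNCs 1 (adjusted p = 0.0707) or DS_CNCs 2 (0.067). In DS_Si NPs against DS it was -2.67 (adjusted p = 0.06), which passed without DS_CNCs 3 (adjusted p = 0.0486).

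Another nepenthesin-1-like unigene, DN4714_c2_g2, had 0.04, 0.14 and 0.09 TPM in DS_Si NPs leaves and 2.03, 0.78 and 1.12 TPM in DS_CNCs leaves, against 5.10, 1.98 and 4.10 TPM in DS leaves. It fell by 4.65 in DS_Si NPs (SE 0.80, adjusted p = 0.00946), a call that held in all 18 refits but not with only the 6 libraries compared (adjusted p = 0.109). In Si NPs leaves it had 0.31, 1.83 and 0.56 TPM against 1.29, 0.48 and 1.20 TPM in CK leaves. The difference between the regimes passed (interaction -5.13, SE 1.04, adjusted p = 0.0445) but held only in the 4 refits without DS_Si NPs 2, DS_CNCs 2, DS_CNCs 3 or DS 3, with an adjusted p of 0.151 without CK 3.

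The aspartic proteinase-like protein 2 DN11846_c0_g1 had its lowest levels in CK. It had 2.36, 0.51 and 3.65 TPM in DS leaves, 2.30, 0.78 and 2.53 TPM in Si NPs leaves and 4.24, 0.80 and 1.96 TPM in CNCs leaves, against 0.39, 0 and 0.02 TPM in CK leaves. Every library of the 3 groups lay above all 3 CK libraries, which serve as the control of all 3 comparisons. The rise was 4.90 in DS (SE 0.88, adjusted p = 0.00843), 5.18 in Si NPs (SE 0.89, adjusted p = 0.0216) and 5.02 in CNCs (SE 0.88, adjusted p = 0.0243). Without CK 3 none of the 3 passed (adjusted p = 0.0719, 0.153 and 0.177 in that order). The Si NPs call was also lost without Si NPs 2, Si NPs 3 or CK 2 (adjusted p 0.0569 to 0.0978), and the CNCs call without CNCs 1, CNCs 3, CK 1 or CK 2 (0.0537 to 0.0927). With limma on log2(TPM + 0.5) the values lay between 1.85 and 2.01, and none passed (adjusted p 0.124 to 0.129).

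Under drought the same unigene had 1.87, 1.81 and 0.56 TPM in DS_Si NPs leaves and 3.65, 4.89 and 2.81 TPM in DS_CNCs leaves, and neither group passed against DS. Both interactions passed (-5.84 for Si NPs, adjusted p = 0.0387, and -4.54 for CNCs, adjusted p = 0.0401), each in 6 of 18 refits, with adjusted p = 0.154 and 0.134 without CK 3. The Si NPs call held without CNCs 2, CK 1, DS_Si NPs 2, DS_CNCs 2, DS_CNCs 3 or DS 3, and the CNCs call without Si NPs 2, CNCs 2, CK 1 or any 1 of the DS_Si NPs libraries. Both share the CK and DS libraries.

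The last called aspartic member, DN5734_c0_g1, is annotated as Asp1 but its nearest Swiss-Prot entry is a trichome birefringence-like protein, which is not a protease. It had 1.67, 3.76 and 3.56 TPM in DS_CNCs leaves against 0.28, 0.35 and 0.95 TPM in DS leaves. It rose by 2.80 (SE 0.76, adjusted p = 0.0327), and the call was lost without CK 3, DS 1, DS 2 or any 1 of the DS_CNCs libraries (adjusted p 0.0517 to 0.133). Asp1-like DN2428_c0_g1 had 31.7, 35.4 and 17.9 TPM in DS leaves against 6.69, 8.77 and 9.45 TPM in CK leaves. Its log2 difference of 1.88 (SE 0.44, adjusted p = 0.029) was under the fold threshold, and it passed the threshold only without DS 3 (2.20). The adjusted p was over 0.05 without CK 1, CK 2, CK 3, DS 1 or DS 2 (0.0738 to 0.14, the highest without CK 3).

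Cystatins were the inhibitor family with the most calls. Cysteine proteinase inhibitor 5 (DN4857_c0_g1) was the most abundant of all 141 members by mean TPM. It had 1619, 425 and 1711 TPM in DS_Si NPs leaves and 147, 38.4 and 112 TPM in DS_CNCs leaves, against 7732, 4279 and 2460 TPM in DS leaves. Under normal moisture it had 348, 287 and 254 TPM in Si NPs leaves and 50.3, 663 and 187 TPM in CNCs leaves, against 5438, 65.6 and 2732 TPM in CK leaves. DS lay above both drought particle groups without overlap, while CK 2 lay far below CK 1 and CK 3.

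It fell by 5.16 in DS_CNCs (SE 1.16, adjusted p = 0.0155), and the call was lost without DS_CNCs 1 (adjusted p = 0.0516), DS_CNCs 2 (0.0632) or DS 2 (0.051). In DS_Si NPs against DS the value was -1.23 and did not pass (adjusted p = 0.449). Against CK the values were -2.60 in Si NPs (adjusted p = 0.162) and -3.60 in CNCs (adjusted p = 0.108), and neither passed.

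The cystatin precursor DN1124_c0_g1, nearest to a rice cysteine proteinase inhibitor, gave the only inhibitor call that held in all 18 refits. It had 14.5, 14.8 and 19.6 TPM in DS_Si NPs leaves and 9.26, 4.94 and 10.5 TPM in DS_CNCs leaves, against 42.7, 63.7 and 56.7 TPM in DS leaves. In CK leaves it had 23.6, 25.5 and 23.9 TPM. DS held the 3 highest libraries of the 18.

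It fell by 2.72 in DS_CNCs (SE 0.35, adjusted p = 0.0011), and this call also held with only the 6 libraries compared (adjusted p = 0.0237). In DS_Si NPs it was lower than in DS, under the fold threshold (-1.53, SE 0.34, adjusted p = 0.0215, up to 0.0999 in refits). In DS against CK the value was 1.19 (SE 0.33) and did not pass (adjusted p = 0.0597).

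Cystatin Hv-CPI11 (DN16204_c0_g1) varied widely within DS and CK. It had 111, 34.7 and 94.4 TPM in DS_Si NPs leaves and 9.15, 3.37 and 4.58 TPM in DS_CNCs leaves, against 1169, 28.7 and 132 TPM in DS leaves, and 960.5, 2.51 and 429 TPM in CK leaves. It fell by 6.43 in DS_CNCs (SE 1.80, adjusted p = 0.0369), but DS 1 carried much of the size: without it the value was -3.91 (adjusted p = 0.149). The call was lost as well without Si NPs 1, CK 3, DS 2 or any 1 of the DS_CNCs libraries (adjusted p 0.0505 to 0.115), and with the replicate block (-5.82, adjusted p = 0.0608).

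The remaining cystatins were not called. Cysteine proteinase inhibitor 3-like DN2741_c0_g1, second in mean level, had 215 ± 56.5 TPM in DS_Si NPs leaves, 232 ± 34.0 in DS_CNCs, 171 ± 40.5 in DS and 218 ± 35.5 in CK (SD, n = 3 each) and passed no test. Cystatin WC-1 DN8349_c0_g1 had 68.9, 60.7 and 103 TPM in DS_Si NPs leaves against 138, 213 and 175 TPM in DS leaves. Its difference of -1.19 (SE 0.32, adjusted p = 0.0408) was under the fold threshold, and the adjusted p reached 0.169 in refits. Over the 8 tested cystatins the median log2 fold change was -1.82 in DS_CNCs against DS and -1.21 in DS_Si NPs against DS, beside 0.10 and 0.14 over all unigenes tested. In DS_CNCs 3 of the 8 fell, where 2.32% of all unigenes did, and in DS_Si NPs none of the 8 was called, where 1.04% of all unigenes fell.

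Inhibitors of serine proteases gave 2 calls. The subtilisin-chymotrypsin inhibitor-2B-like DN474_c0_g1, of the potato inhibitor I family, had 745, 111 and 1542 TPM in DS_Si NPs leaves and 21.5, 21.1 and 94.4 TPM in DS_CNCs leaves, against 598, 1880 and 445 TPM in DS leaves. In CK leaves it had 224, 23.3 and 96.8 TPM. It fell by 5.25 in DS_CNCs (SE 1.36, adjusted p = 0.0279), and the call was lost without DS_CNCs 1 (adjusted p = 0.0986), DS_CNCs 2 (0.0959) or DS 2 (-4.10, 0.107). The value of 3.74 in DS against CK did not pass (adjusted p = 0.114), although every DS library lay above every CK library. The smaller inhibitor-2A DN16317_c0_g1 stayed between 0 and 13.6 TPM and passed no test.

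Putative serpin-Z5 DN41115_c0_g1 rose by 2.05 in DS_CNCs (SE 0.62, adjusted p = 0.048), with 2.48, 3.75 and 3.55 TPM in DS_CNCs leaves against 2.24, 1.39 and 1.66 TPM in DS leaves. The call held in 3 of 18 refits, those without Si NPs 2, Si NPs 3 or CK 1, with an adjusted p up to 0.158 without DS 2, and it was lost with limma on log2(TPM + 0.5), where the value was 0.73. The more abundant serpins passed no test. Serpin-ZX DN12844_c0_g1, a broad inhibitor in barley, had 15.1 ± 2.76 TPM in DS_Si NPs leaves, 16.8 ± 5.59 in DS_CNCs and 22.0 ± 4.10 in DS (SD, n = 3 each). Serpin-Z1-like DN6715_c0_g1 and the probable non-inhibitory serpin-Z9 DN12275_c0_g1 had at most 11.2 and 5.24 TPM.

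No Bowman-Birk inhibitor passed the test. The most abundant, DN2702_c0_g1, had 69.9, 29.2 and 121 TPM in DS_Si NPs leaves and 4.92, 30.2 and 13.9 TPM in DS_CNCs leaves, against 20.9, 5.69 and 66.6 TPM in DS leaves, and 94.0, 23.8 and 55.0 TPM in CK leaves. DN7820_c0_g1, of 316 bases, had reads only in the 4 groups sprayed with particles. It was at 0 counts in all DS and CK libraries and had 27.5, 39.3 and 20.0 TPM in DS_Si NPs leaves, 5.23, 30.0 and 7.40 TPM in DS_CNCs leaves, 34.6, 0 and 0 TPM in Si NPs leaves and 10.1, 39.2 and 13.2 TPM in CNCs leaves. Against a floor of 3 counts over the group it was at least 60.9-fold higher in DS_Si NPs and at least 28.4-fold higher in DS_CNCs than in DS, and at least 41.4-fold higher in Si NPs and at least 46.8-fold higher in CNCs than in CK. The adjusted p was 0.0565, 0.0656, 0.105 and 0.119 in that order, and the Si NPs bound rested on Si NPs 1 alone. The third in abundance, DN13602_c0_g1, had 0 counts in all DS_CNCs libraries against 18.5, 0 and 0 TPM in DS leaves, so a fold of at least 41.1 lower rested on DS 1 alone (adjusted p = 0.141).

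**Figure D4:**
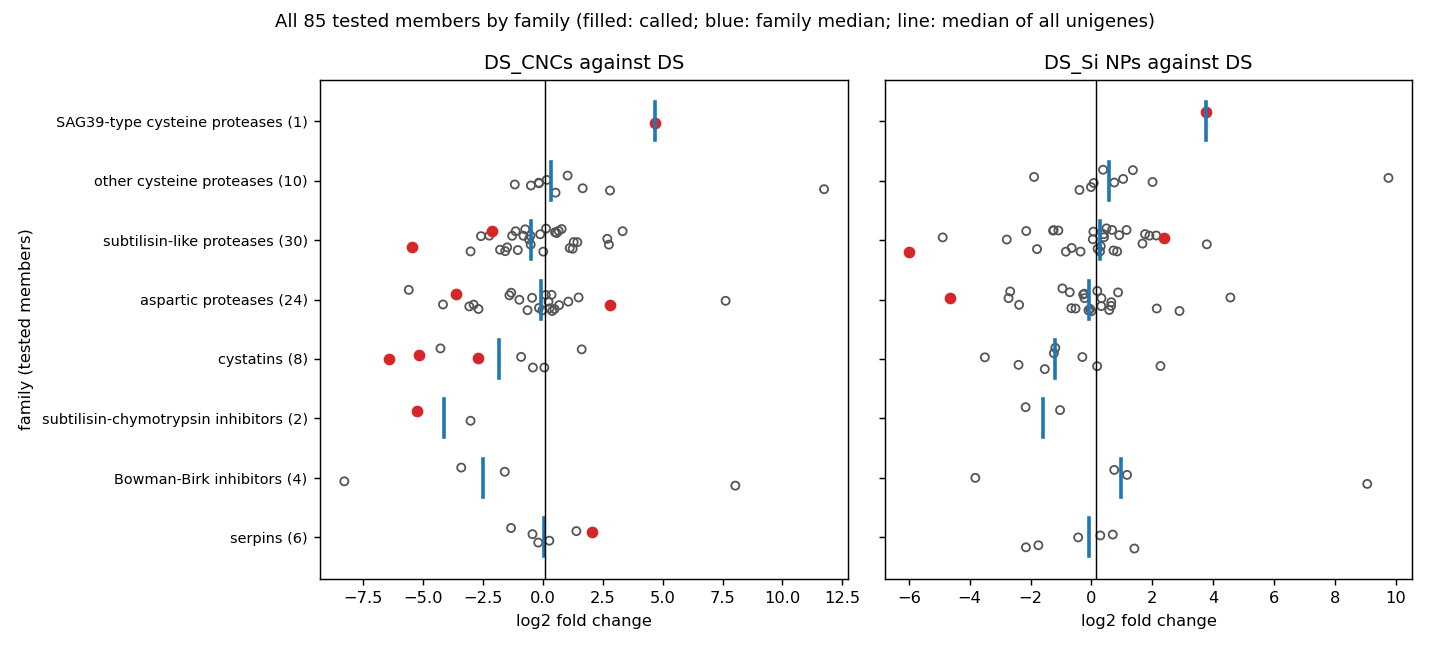
Log2 fold change of each of the 85 tested members by family in DS_CNCs against DS and in DS_Si NPs against DS, with called members filled, the family median in blue and the median of all tested unigenes as a line. Cystatins had a median of -1.82 in DS_CNCs and -1.21 in DS_Si NPs, and 3 cystatins were called in DS_CNCs.

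Counted by comparison, DS_CNCs against DS had the most calls: 10 of 85 members, 3 higher and 7 lower, where 5.8% of all unigenes tested were called, 3.48% higher and 2.32% lower. Of the 20 inhibitors 1 rose and 4 fell, and of the 65 proteases 2 rose and 3 fell. The 2 that rose were the SAG39-like gene and DN5734_c0_g1, whose nearest Swiss-Prot entry is not a protease. Without a minimum fold 13 members passed, where 9.47% of all unigenes did. The median log2 fold change was -1.12 over inhibitors and -0.11 over proteases, beside 0.10 over all. In 7 of 20 inhibitors the DS_CNCs libraries all lay below the DS libraries, where 12% of all unigenes did. An unadjusted p under 0.05 was seen for 11 of the 20 inhibitors, where 29.1% of all unigenes had one. The count fell to 2 without DS_CNCs 1, 3 without DS 2, 4 without DS_CNCs 2 and 6 without CK 3, and over all 18 refits it ran up to 13. Calls over all unigenes ranged 832 to 3802 in the same refits.

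DS_Si NPs against DS had 4 calls, all proteases, 2 higher and 2 lower, where 3.39% of all unigenes were called, 2.34% higher and 1.04% lower. Without a minimum fold 8 members passed, where 6.07% of all unigenes did. The median was -0.73 over inhibitors and 0.20 over proteases, beside 0.14 over all, and none of the 20 inhibitors was called although 6 had an unadjusted p under 0.05, where 25.8% of all unigenes did. In 7 of the 20 the DS_Si NPs libraries all lay below the DS libraries, where 11.7% of all unigenes did. The count was 2 without DS_Si NPs 2 or without DS 2 and 0 with only the 6 libraries compared, a fit that called no unigene at all. Calls over all unigenes ranged 144 to 2272 in the 18 refits without 1 library. Both drought comparisons share the 3 DS libraries, so their values are not independent of each other.

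DS against CK had 3 calls, the SAG39-like gene lower and 2 proteases higher, where 2.01% of all unigenes were called, 1.59% higher and 0.423% lower. Without a minimum fold 7 members passed, where 3.89% of all unigenes did. Si NPs against CK had 2 and CNCs against CK 1, all proteases and all higher, where 1.03 and 0.377% of all unigenes were called, and 0.847 and 0.291% of all unigenes were higher. No inhibitor was called in these 3 comparisons, although 3, 4 and 5 of 20 in the order DS, Si NPs and CNCs had an unadjusted p under 0.05, where 19.6, 22.4 and 18.2% of all unigenes did. DESeq2 called 6, 9 and 7 members in the same order, counts given without its share of all unigenes and so not a result about the members. Without CK 3 the edgeR counts were 1, 0 and 0. Over all 18 refits without 1 library, edgeR called 150 to 1418, 3 to 859 and 4 to 289 of all unigenes in that order. The 3 comparisons share the CK libraries. Aspartic proteases had a median log2 fold change of 0.71 in CNCs against CK, beside 0.08 over all unigenes, and 10 of 24 lay above CK without overlap, where 22.5% of all unigenes did.

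Between the particles no member was called. In DS_Si NPs against DS_CNCs no unigene of the 55979 was called by edgeR (5163, or 9.22%, had an unadjusted p under 0.05 and 0% passed). DESeq2 called 6 members there, a count given without its share of all unigenes and so not a result about the members. By edgeR the member with the lowest p was DN4714_c2_g2 at -3.66 (SE 0.78, adjusted p = 0.284). In Si NPs against CNCs, where 0.0411% of all unigenes were called, the aleurain-type DN6423_c0_g1 had the lowest p (-0.51, SE 0.16, adjusted p = 0.232). The interaction with drought was called for 2 members with Si NPs and 3 with CNCs, where 0.263 and 1.96% of all unigenes were called. Both Si NPs calls were lower, where 0.195% of all unigenes were, and with CNCs 1 was higher and 2 lower, where 0.554 and 1.41% were.

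**Figure D5:**
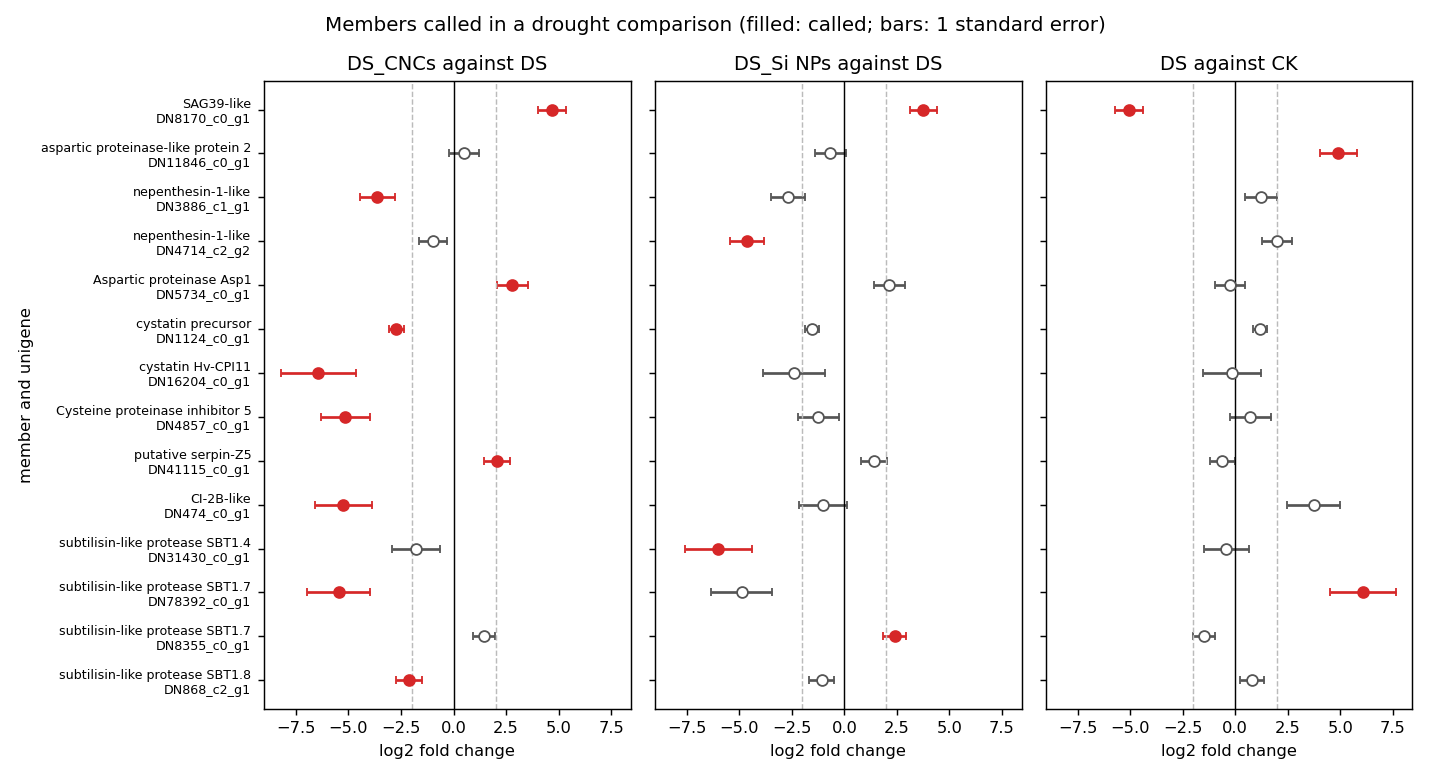
Log2 fold changes with 1 SE of the members called in a drought comparison, in DS_CNCs against DS, DS_Si NPs against DS and DS against CK, with called values filled and dashed lines at the fold threshold. The SAG39-like gene lay at 4.69, 3.76 and -5.04 in that order. Values of SBT1.7 DN78392_c0_g1 and SBT1.4 DN31430_c0_g1 depend on the model's handling of counts near 0.

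Calls in other parts of the protein breakdown machinery are set beside the shares of all unigenes called, which were 3.39% in DS_Si NPs against DS, 5.8% in DS_CNCs against DS, 2.01% in DS against CK and 1.03% in Si NPs against CK. None of 62 tested serine carboxypeptidases rose and 2 fell in DS_Si NPs, and 1 rose and 2 fell in DS_CNCs, each against DS, and 1 rose in Si NPs against CK, serine carboxypeptidase 24-like DN9891_c0_g1 (3.51, SE 0.61, adjusted p = 0.0225). Of 51 organelle ATP-dependent and Deg proteases 1 was called, the chloroplast metalloprotease FTSH 1 DN69897_c0_g1, which rose in DS (4.17, SE 1.07, adjusted p = 0.0423) and in Si NPs (6.68, SE 1.16, adjusted p = 0.0225) against CK. Of 9 vacuolar processing enzymes and metacaspases 1 rose in DS_CNCs against DS, metacaspase-1 DN5135_c0_g1 (2.66, SE 0.68, adjusted p = 0.0268). Of 53 proteasome subunits 1 rose there, and of 23 autophagy proteins 1 fell in DS_Si NPs against DS. Among 13 senescence and chlorophyll breakdown genes 1 was called, STAY-GREEN 1a DN9233_c0_g1, which starts chlorophyll breakdown in ageing leaves. It rose by 2.47 in DS against CK (adjusted p = 0.0242) and fell by 2.44 in DS_CNCs (adjusted p = 0.0163) and by 2.49 in DS_Si NPs (adjusted p = 0.0227) against DS, signs opposite to those of the SAG39-like gene in all 3. The 3 comparisons share the DS libraries, so these signs are not independent of each other. STAY-GREEN 1a was also called lower in the interaction of CNCs with drought (-4.20, SE 0.78, adjusted p = 0.0114). There 1.41% of all unigenes were called lower, and the DS libraries enter as well. The genes of these lists were not followed in the refits, so their values against CK are not given without CK 3.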

How the data were processed

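Leaf RNA of 18 libraries was poly(A)-selected and made into strand-marked (dUTP) libraries. RNA was extracted with an Omega plant kit according to the methods and with Trizol according to the labels. The authors used Cutadapt for trimming, FastQC for read quality, Trinity for an assembly of unigenes without a genome and DIAMOND for annotation. With Salmon the authors made both deposited columns, estimated counts and TPM. Of the estimated counts 452055 are not whole, so counts were rounded. Near-identical copies of this polyploid grass may share or split reads between unigenes.

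Counts were filtered with filterByExpr, scaled by TMM and fitted over all 6 groups with edgeR 4.0.16 (R 4.3.3, quasi-likelihood F test, 12 residual degrees of freedom), and p-values were adjusted by Benjamini-Hochberg over 55979 unigenes. For 3 against 3 libraries, 0.1 is the smallest p of an exact permutation test, so none was used. The test was also run on simulated negative binomial counts with independent libraries and capped dispersions. That setting is simpler than these data, so no conclusion is drawn from it. Alternatives were RLE scaling, no filter, only the libraries compared, the replicate number as a block, log2 thresholds of 1 or none, DESeq2 1.42.0, limma 3.58.1 on log2(TPM + 0.5) or log2(TPM + 1), and each library left out in turn. Counting intervals are exact binomial at 95% and, like the floor of 3 counts, cover counting error only.

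Members and lists were chosen with earlier results of these data known. Named were the 3 most abundant tested members of each family, all called members, the lowest p where none was called, and members with an adjusted p under 0.05 below the fold threshold or a pattern seen in the values. The background lists name at most 2 called unigenes each.

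The physiological measurements and the qRT-PCR of the study are not analysed here. No genome was used, so no coordinates are given.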

Additional observations from a re-analysis of the deposited data

Results flagged for a closer look

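The contrast of a particle group with its control (DS or CK) differed between the drought and the normal regime in 5 tests (edgeR interaction terms) over 4 members. CK was sprayed with water and no spray is named for DS, so these tests do not separate the particle from spraying. With CNCs the difference was 3.87 on the log2 scale for the SAG39-like DN8170_c0_g1, -3.80 for SBT5.6 DN16095_c0_g1 and -4.54 for aspartic proteinase-like protein 2 DN11846_c0_g1. With Si NPs it was -5.84 for DN11846_c0_g1 and -5.13 for nepenthesin-1-like DN4714_c2_g2. Each of the 5 kept its direction in all 18 refits without 1 library, which share most of their libraries, and none of them passed without CK 3. With limma on log2(TPM + 0.5), DN11846_c0_g1 was -2.20 with Si NPs (adjusted p = 0.334) and -1.14 with CNCs (0.595). DN4714_c2_g2 was -2.57 (0.174) by limma, and none of these passed. DN8170_c0_g1 (3.27, 0.0447) and DN16095_c0_g1 (-3.26, 0.0131) did pass in that limma setting. With limma on log2(TPM + 1), DN8170_c0_g1 did not pass (2.85, adjusted p = 0.0552), while DN16095_c0_g1 did (-2.92, 0.0125). Without the filter on low counts only DN8170_c0_g1 passed (edgeR adjusted p = 0.0319). Groups of 3 libraries are too small for a test of single outlying libraries.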

How the results depend on the processing

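Over 49 pairs of member and comparison, 25 of them called, all 1271 alternative values kept their direction. The pairs were picked for their values in these data and the alternatives reuse the same libraries. Agreement in direction was therefore likely beforehand, and no conclusion is drawn from it. Of the 25 calls, RLE scaling and DESeq2 kept 25 each, no filter on low counts 13, limma on log2(TPM + 0.5) 14, limma on log2(TPM + 1) 13 and limma without a filter 13. Fitting only the libraries compared kept 12 of 24.

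The number of members called was 3 for DS against CK, 2 for Si NPs against CK, 1 for CNCs against CK, 4 for DS_Si NPs against DS and 10 for DS_CNCs against DS. DESeq2 gave 6, 9, 7, 14 and 22 in that order, 1 for Si NPs against CNCs and 6 for DS_Si NPs against DS_CNCs (0 each by edgeR), and 9 for the CNCs interaction (3 by edgeR). Without a filter the counts were 1 for Si NPs against CK, 6 for DS_CNCs against DS, 0 for the Si NPs interaction (2 with it) and 1 for the CNCs interaction. With only the libraries compared they were 5 for CNCs against CK, 0 for DS_Si NPs against DS, 5 for DS_CNCs against DS, 1 for Si NPs against CNCs and 0 for the Si NPs interaction. All 3 limma settings gave 2 for CNCs against CK, 7 for DS_Si NPs against DS and 0 for the Si NPs interaction. Without a minimum fold change the counts were 7 for DS against CK and 8 for DS_Si NPs against DS, and with a log2 threshold of 1 DS_Si NPs against DS had 7. For most of these settings the share of all unigenes called is not given beside the count. The counts therefore describe the settings and are not a result about the members. The cause was not tested.

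With each library left out in turn, members called ranged 1 to 4 for DS against CK, 0 to 3 for Si NPs against CK, 0 to 1 for CNCs against CK, 2 to 5 for DS_Si NPs against DS, 2 to 13 for DS_CNCs against DS, 0 to 3 for the Si NPs interaction and 0 to 5 for the CNCs interaction. The calls over all unigenes also ranged widely in these refits. They were 150 to 1418, 3 to 859, 4 to 289, 144 to 2272, 832 to 3802, 8 to 354 and 285 to 1637 in that order.

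Replicate numbers did not pair the libraries: over 45 same-numbered pairs the correlation of deviations ran between -0.0809 and 0.16, with 2 over 0.1, and 8 of 18 libraries were closest to their own number. With the replicate block 17 of the 25 calls held, and the count was 1 for Si NPs against CK and 0 for the Si NPs interaction. The share of all unigenes called with the block is not given.

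For members near 0 counts a fitted fold change depends on the prior count, so their folds are set against a floor of 3 counts over the group or given with a counting interval.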

Other observations

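Annotation and Swiss-Prot description parted for several members. The papain-like DN27283_c0_g1 is nearest to SAG39 and DN20483_c0_g1 to SAG12, although neither is annotated as SAG39. DN20483_c0_g1 had 0.91, 2.72 and 3.90 TPM in DS_Si NPs leaves and 0.38, 5.35 and 4.83 TPM in DS_CNCs leaves, against 0.32, 1.43 and 1.24 TPM in DS leaves, and it passed no test. DN5639_c0_g1, annotated as a cysteine proteinase, is nearest to the autophagy protease ATG4B and had 5.43 to 9.16 TPM over the 18 libraries, and it passed no test.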
